A study of Drosophila melanogaster with 13 samples.

Results

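Messenger RNA of the head was compared between SD6 and SD2, 2 isofemale lines of Drosophila melanogaster. The samples were chosen by the line number that closes each title, which gives 8 of the 12 RNA samples of the series, 4 from each line. Within a line the 4 samples are males and females from larvae fed HPS food (high protein, low sugar, with 0.43 parts protein to 1 of carbohydrate) or LPS food (low protein, high sugar, ratio 0.1). Each sample was 1 pool of 70 to 80 heads cut from flies 2 to 6 h after eclosion. All larvae grew at 25 °C in groups of 40, with 10 vials for a line on a diet, so brothers and sisters of a line and diet share vials. SD3, the other line of the series, is used here only to place libraries and to give a level beside that of SD2 and SD6. The library labelled male LPS SD6 (C9) does not carry the pattern of SD6, and the values that follow therefore rest on 7 samples, 4 of SD2 and 3 of SD6, unless another set is named. Each line is 1 lineage with at most 1 pool in each combination of sex and diet. The p-values therefore rest on what additive terms for sex, diet and line leave over, where spread between pools and interactions cannot be told apart. A difference is one between these 2 lines.

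An isofemale line is founded by a single mated wild female and kept by inbreeding, which fixes a small sample of the alleles of the wild population. Lines from the same place therefore differ at many regulatory and structural variants, and a transcript can be abundant in one line and missing in its neighbour. Genes of detoxification, smell and taste, immunity and cuticle are known in Drosophila for large differences in expression between natural lines. In the first hours after eclosion the head still holds larval fat body cells, and its cuticle is still tanning.

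The SD2 samples held 10.2 M to 27.5 M gene reads and the 3 SD6 samples 13.9 M to 25.3 M. The SD2 male LPS RNA was sequenced as 2 libraries that were summed. The SD2 male HPS library and 1 of these 2 came from a second sequencing run that holds SD2 males and nothing else. Across samples that run therefore cannot be told apart from what is particular to SD2 males. Only the male LPS RNA of SD2 was in both runs, and the comparison was repeated with each of its libraries alone. Levels are counts per M gene reads scaled by TMM (CPM), and lists of values run male HPS, female HPS, male LPS, female LPS, with no male LPS value for SD6. The defining markers of the head were present in all libraries: elav, a neuronal RNA-binding protein, had at least 641 reads in each library, the photoreceptor opsin ninaE at least 155111 and the glial factor repo at least 298. The testis transcripts dj, Mst98Ca and Mst84Da had no read in any library. Of the other testis markers, bam had at most 1 read in a library and betaTub85D had 7 to 35. In whole heads, a change in the number of cells of a type and a change of RNA per cell cannot be told apart.

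The line of each male library was placed with genes that differ between the females. On 491 genes more than 2-fold apart between SD2 females (set to 0) and SD6 females (set to 1), the SD2 male libraries lay at 0.041, 0.039 and 0.026 and the SD6 male HPS library at 0.966. The library labelled male LPS SD6 (C9) lay at 0.568, next to the SD3 male HPS library at 0.581. On 423 genes between SD3 (0) and SD6 (1) females, C9 lay at 0.055 and the library labelled male LPS SD3 (C8) at 0.999. C9 thus had the values of the SD3 line and C8 those of SD6, and both go against their labels. Results are given without C9, and the comparison was repeated with C8 in its place and as labelled.

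**Figure D1:**
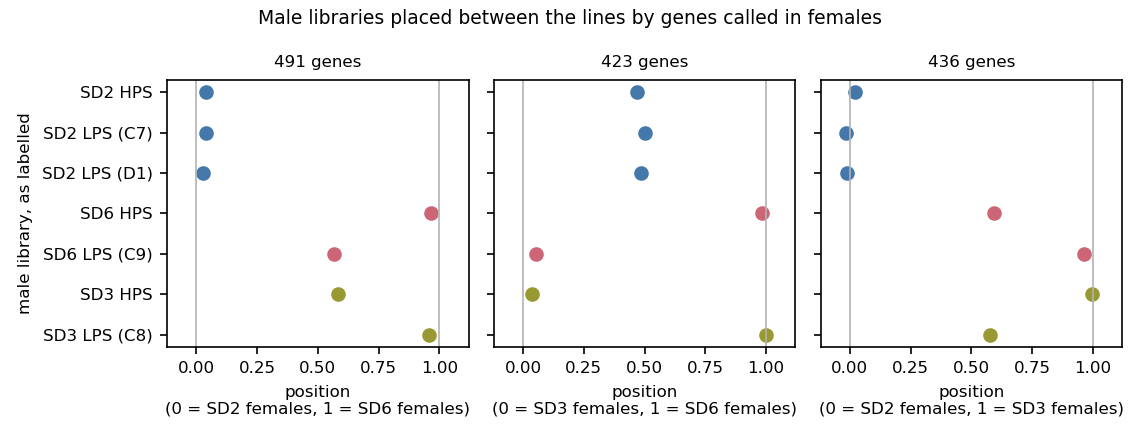
Position of each male library (rows, by its label) between the female means of 2 lines, where 0 and 1 are the female means named under each axis and each point is 1 library. C9 stands at 0.055 and C8 at 0.999 on the axis from SD3 to SD6, the reverse of their labels, while the SD2 libraries lie between 0.026 and 0.041 on the axis from SD2 to SD6.

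A gene was called different where edgeR's quasi-likelihood test, with sex and diet in the fit, gave a Benjamini-Hochberg adjusted p below 0.05. Of 9823 genes tested 2277 were called (23.2%). Of these 1227 were higher in SD6 (12.5% of the genes tested) and 1050 were lower (10.7%). With library size alone for scaling, which moves the median of all genes from −0.002 to −0.046 on the log2 scale, the split turns to 1045 higher and 1394 lower, so the balance of directions is not fixed by the data. The CPM ranges of the lines did not overlap for 2743 genes (27.9%). The called differences were mostly modest, with a median absolute log2 difference of 0.50, but 330 genes were more than 2-fold higher and 205 more than 2-fold lower. By the fitted values 31 genes were more than 16-fold higher and 20 more than 16-fold lower.

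With C8 standing for the male LPS sample of SD6, 3027 of 9777 genes were called (31.0%), and as labelled 1012 of 9693 (10.4%). Of the genes called without C9, 2255 were tested with C8 and all of these kept their direction, and 2197 were called again. As labelled, each of the 1012 genes called was among the 2277, in the same direction.

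**Figure D2:**
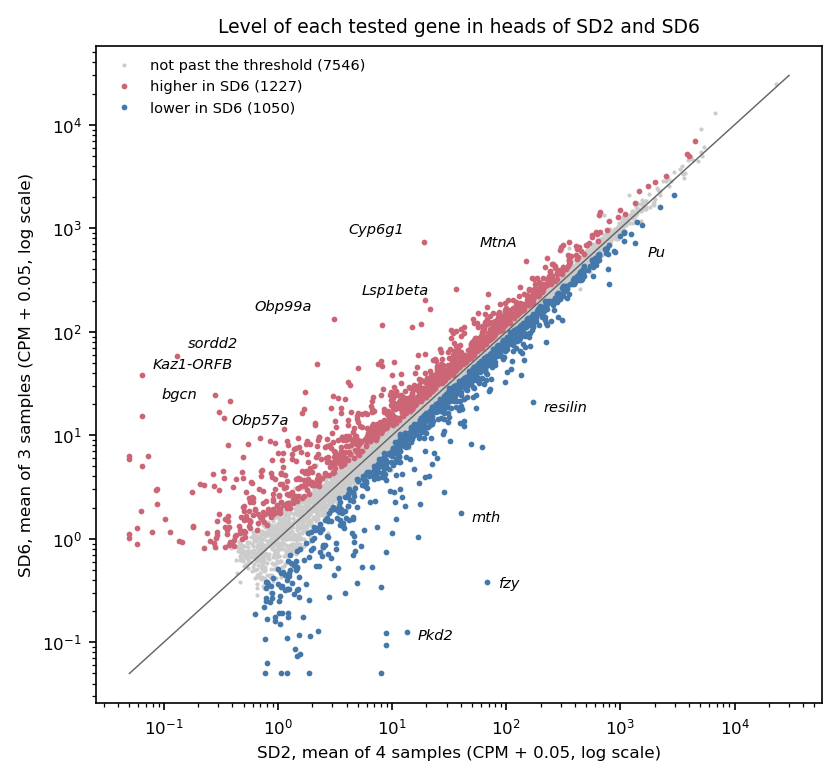
Mean CPM of each of the 9823 tested genes in SD2 (horizontal, 4 samples) and SD6 (vertical, 3 samples), both on log scales with 0.05 added, where red points are higher in SD6 (1227), blue points lower (1050) and grey points not called. The named genes were picked by hand and are not all among the farthest from the diagonal of equal levels. Of them fzy, Pkd2 and mth lie far below it and Kaz1-ORFB, sordd2, bgcn and Cyp6g1 far above.

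Differences were found on every chromosome arm. The share called was lowest on X, at 19.9% of 1600 genes, and between 22.5% and 25.5% on 2L, 2R, 3L and 3R. On the small chromosome 4, 28 of 90 tested genes were called, 23 lower and 5 higher in SD6, and the median log2 difference there was −0.12. On 2R 305 called genes were higher and 202 lower. No test of 1 arm against another was made.

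Several genes had at most a few reads in one line and clear expression in the other. A count of 3 reads was taken as the floor for detection, and a line was under it where each of its libraries was. Among the tested genes 16 were under the floor in SD2 and 15 in SD6. They passed the filter on low counts through the line in which they were high, so that their being called follows from how they were kept. Kaz1-ORFB (FBgn0063923, arm 3L), a protein with a Kazal protease inhibitor domain, had 1 read over all SD2 samples and 34.7, 38.2 and 42.3 CPM in SD6. That is at least 131-fold higher in SD6, taking the floor of the shallowest SD2 library. SD3 had a mean of 26.8 CPM, so SD2 alone of the lines lacked it. In the BDGP6 annotation 24.1% of its exon bases are shared with Kaz1-ORFA on the same strand.

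SdicC (FBgn0283434, arm X), a member of the tandem Sdic family of sperm dynein chains, had no read in SD2 and 6.48, 6.19 and 4.71 CPM in SD6, at least 19.8-fold higher. Copies of Sdic are nearly identical, so uniquely mapped reads may not separate them and this value is uncertain. Of genes known only by number, lncRNA:CR43761 (at least 21.6-fold), CG13877 (at least 51.9-fold), CG31157 (at least 17.2-fold) and asRNA:CR45009 (at least 21.2-fold) were likewise higher in SD6.

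The reverse was seen for lcs (FBgn0028583, arm X), with 8.22, 9.67, 10.5 and 6.70 CPM in SD2 and no more than 2 reads in any SD6 library, at least 40.7-fold lower in SD6. The antisense RNAs asRNA:CR44030 and asRNA:CR43767 were at least 36.9-fold and 41.1-fold lower. CG18853 had no read in SD6 and Odc2, an ornithine decarboxylase, had 2, against means of 1.82 and 1.51 CPM in SD2. Or67d, the receptor of the male pheromone cis-vaccenyl acetate, had 2.17, 1.43, 1.34 and 0.988 CPM in SD2 and 3 reads over the SD6 libraries, at least 6.87-fold lower. These genes thus differ as presence against near absence at this depth.

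Other large differences left a low level in the weaker line. Those near 0 in 1 line likewise passed the filter through the line in which they were high. Among them were sordd2, bgcn, Hsc70-2, fzy, Pkd2, Obp57a, Obp28a, Ir76a and Mal-A2, and their being called follows from this as well. sordd2 (FBgn0052581, arm X) was at 0, 0.0597, 0.103 and 0.165 CPM in SD2 and at 58.3, 52.0 and 63.7 CPM in SD6. The log2 difference was 9.30 ± 0.19 (adjusted p = 1.74e-10), where ± gives a standard error derived from the F statistic of the test. With so few SD2 reads this error can be smaller than the counting error. bgcn (FBgn0004581, arm 2R), known for its role with bam in the differentiation of germ cells, had 0.0945, 0.239, 0.378 and 0.22 CPM in SD2 and 28.5, 20.8 and 24.1 CPM in SD6 (6.66 ± 0.19, adjusted p = 1.62e-09). Other germ line genes did not move with it: vas averaged 1.58 CPM in SD2 and 1.54 CPM in SD6, and bam had at most 1 read in a library. C8 held bgcn at 24.9 CPM and C9 at 0.347 CPM.

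Hsc70-2 (FBgn0001217, arm 3R), a heat shock cognate protein, was at 0, 0.836, 0.206 and 0.11 CPM in SD2 and at 15.6, 13.2 and 15.3 CPM in SD6 (5.56 ± 0.37, adjusted p = 1.35e-06). tobi (FBgn0261575, arm 3R), an alpha-glucosidase regulated by insulin-producing cells, was at 1.32, 1.49, 2.23 and 1.70 CPM against 19.7, 43.3 and 16.2 CPM (3.56 ± 0.33). Acsx4 (FBgn0038734, arm 3R), of the acyl-CoA synthetase family, was at 1.23, 1.13, 0.858 and 1.04 CPM against 11.7, 10.9 and 11.6 CPM (3.44 ± 0.17). These genes were named only where the CPM ranges of the lines did not overlap, so the gap between their samples follows from that choice.

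Among genes lower in SD6, fzy (FBgn0001086, arm 2L), the Cdc20 activator of the anaphase-promoting complex, had 69.8, 64.2, 71.2 and 67.2 CPM in SD2 and 0.498, 0.0666 and 0.443 CPM in SD6 (−7.54 ± 0.19, adjusted p = 6.42e-10). Pkd2 (FBgn0041195, arm 2L), a polycystin cation channel, had 12.9, 14.9, 11.2 and 15 CPM against 0, 0.0666 and 0.161 CPM (−7.17 ± 0.29). Both were also near 0 in SD3, where fzy was at 0.24, 0.912 and 0.176 CPM in its 3 remaining samples. SD2 is thus the line that stands apart for them.

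mth (FBgn0023000, arm 3L), the G protein-coupled receptor known from a long-lived mutant, had 40.7, 46.5, 33.3 and 40.2 CPM in SD2 and 1.64, 2.00 and 1.49 CPM in SD6 (−4.64 ± 0.11, adjusted p = 6.02e-10). For mth SD6 is the line apart, with 42.2, 58.1 and 48.8 CPM in SD3. C9 was at 53.6 CPM and C8 at 1.28 CPM, and with C9 kept as labelled the difference was −2.53 and was not called (adjusted p = 0.185). The elastic cuticle protein resilin (FBgn0034157, arm 2R) was at 95.3, 389, 49.3 and 157 CPM in SD2 and at 10.3, 38.6 and 13.9 CPM in SD6 (−3.39 ± 0.10), higher in females of either line on both diets where both sexes were measured. Further genes well below SD2 were MetRS-m, the mitochondrial methionyl-tRNA synthetase (−2.54 ± 0.18), NetA, a netrin that guides axons (−2.01 ± 0.14), and r-cup (−3.63 ± 0.22).

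**Figure D3:**
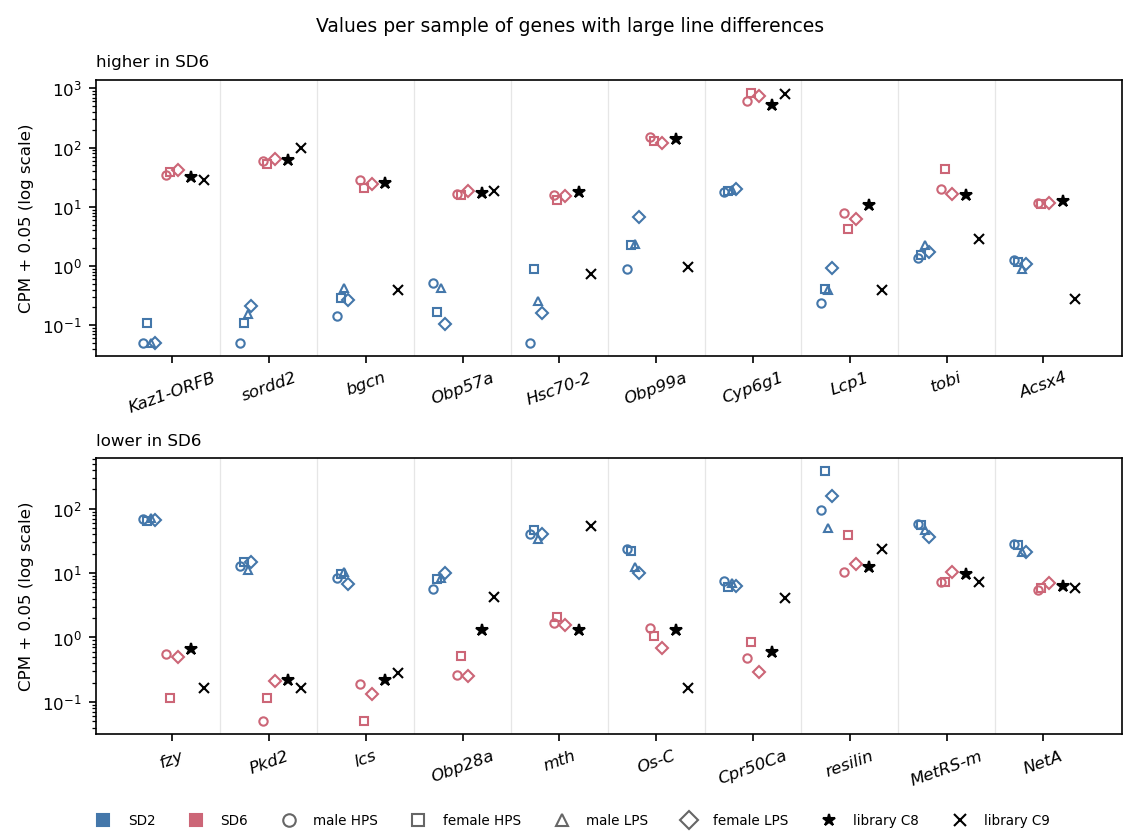
CPM per sample (log scale, 0.05 added) of 10 genes higher and 10 genes lower in SD6, with SD2 in blue, SD6 in red, symbols for sex and diet, a star for C8 and a cross for C9. These genes were chosen from those whose CPM ranges do not overlap between the lines and that were called with C8 in place of C9. The gap between the lines thus follows from the choice, which also favoured C8 lying near SD6. C9 lies far from SD6 for bgcn, Obp99a and mth, at 0.347, 0.926 and 53.6 CPM.

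The 32 genes named for their size are flanked by 61 other tested genes, each counted once and none of them named for its own size. Of these 20 were called (32.8%, against 23.2% of all tested genes), 16 of them in the same direction as the named gene, and no test of this share was made. Hsc70-2 is followed in the BDGP6 annotation by CG31157 (from 0.0149 to 5.04 CPM) and CG7966 (1.63 on the log2 scale, from 32.7 to 103 CPM), all higher in SD6. Kaz1-ORFB, pyx (0.74, from 7.81 to 13.4 CPM) and CG13877 form another such stretch, in which 93.2% of the exon bases of CG13877 overlap pyx on the opposite strand. sordd2 lies beside CR44383 (from 0.0372 to 2.97 CPM), and r-cup beside CG1532 (−1.65, from 98.1 to 32.6 CPM). At asRNA:CR45009 the directions were opposed, as the antisense RNA was higher while FucTC, the fucosyltransferase gene it overlaps, was lower (1.01 CPM in SD2 and no read in SD6).

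Runs of at least 3 adjacent tested genes called in the same direction numbered 67 and held 217 genes, 9.53% of those called, and 14 runs had at least 4. Both longest runs had 5 genes: CG13658, CG11893, CG31098, CG31102 and CG31288 on 3R were higher in SD6 by 0.48 to 2.29, and CG31998, Crk, CG31999, yellow-h and CG1674 on chromosome 4 were lower, by −0.42 to −0.23. The maltase genes Mal-A1, Mal-A2, Mal-A5 and Mal-A6 made a run of 4 higher genes with a largest value of 4.47, and Cpr47Ea, Cpr47Ee and Cpr47Ef belonged to a run of 4 lower ones. How many such runs independent genes would give was not computed.

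Of 15 tested genes linked to insecticide resistance 8 were higher in SD6, none was lower and 7 did not pass (53.3% called, against 23.2% of all tested genes). Cyp6g1 (FBgn0025454, arm 2R), the cytochrome P450 whose high expression gives resistance to DDT and neonicotinoids, stood at 18.0, 18.4, 19.1 and 20.2 CPM in SD2 and at 616, 849.5 and 742 CPM in SD6. The log2 difference was 5.24 ± 0.11 (adjusted p = 1.74e-10) and ranged from 5.13 to 5.35 over all alternatives. SD3 was high as well, at 961, 952 and 825 CPM, so SD2 was the low line. Its neighbour Cyp6g2 went from 1.32, 1.49, 1.06 and 1.21 to 2.21, 2.66 and 3.51 CPM (1.13 ± 0.23).

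Cyp6a8 was at 3.21, 2.57, 3.43 and 2.14 CPM in SD2 and at 16.9, 19.4 and 19.3 CPM in SD6 (2.74 ± 0.16, adjusted p = 5.11e-07). Cyp12d1-p (1.17 ± 0.14) and Cyp12d1-d (1.01 ± 0.19) were both higher, but they are near-identical copies whose unique reads may not be assigned reliably. Cyp6a2 (0.64 ± 0.12), Cyp6w1 (0.56 ± 0.069) and the drug transporter Mdr50 (2.05 ± 0.29) complete the 8. Of the insecticide targets on this list none passed: acetylcholinesterase Ace was at −0.23 (adjusted p = 0.0557), the GABA receptor Rdl at −0.19 and the nicotinic subunit nAChRalpha6 at −0.12. Other nicotinic subunits, counted with their own family, were called. Mdr49, Mdr65, GstD1 and GstE2 lay between −0.17 and 0.23 and did not pass either. With C8, 9 genes of the list were higher and 2 lower, as labelled 6 were higher and none lower, and with library size alone for scaling 8 were higher and 1 lower.

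Over the whole P450 family 30 of 73 tested genes were higher and 10 lower (54.8% called, against 23.2% of all tested genes). The median log2 difference of the family was 0.25. Large increases were those of Cyp301a1 (1.99 ± 0.20), Cyp6d2 (1.95 ± 0.25) and Cyp309a1 (1.87 ± 0.18, from 10.0 ± 2.25 to 38.5 ± 9.96 CPM, mean ± SD). Cyp28a5 went from 73.4, 72.4, 76.9 and 84.2 CPM to 140.1, 155 and 157 CPM (0.98 ± 0.067). Lower were Cyp6a20, which is known for its link with male aggression, at 112, 141, 123 and 166 CPM in SD2 against 35.9, 40.9 and 38.4 CPM in SD6 (−1.85 ± 0.089), Cyp6a16 (−1.90 ± 0.20) and Cyp313a1 (−0.70 ± 0.074, from 579 to 347 CPM). The family thus held differences in both directions, more of them higher.

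Enzymes of later detoxification steps followed less evenly. Among UDP-glycosyltransferases, which couple sugars to lipophilic compounds, 10 of 19 tested were higher and 1 lower (57.9% called). Ugt35E2 was at 1.42, 1.13, 2.16 and 2.09 CPM in SD2 and at 7.61, 8.19 and 8.82 CPM in SD6 (2.34 ± 0.18), and Ugt302K1 went up by 2.08 ± 0.23. Of 29 glutathione transferases only 4 were higher and 1 lower (17.2% called, below the 23.2% of all genes), GstD2 (1.24 ± 0.16) and GstE9 (0.61 ± 0.074) among the higher. The summed CPM of the P450 list ran from 3264 to 3929 in SD2 and from 4208 to 4805 in SD6.

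**Figure D4:**
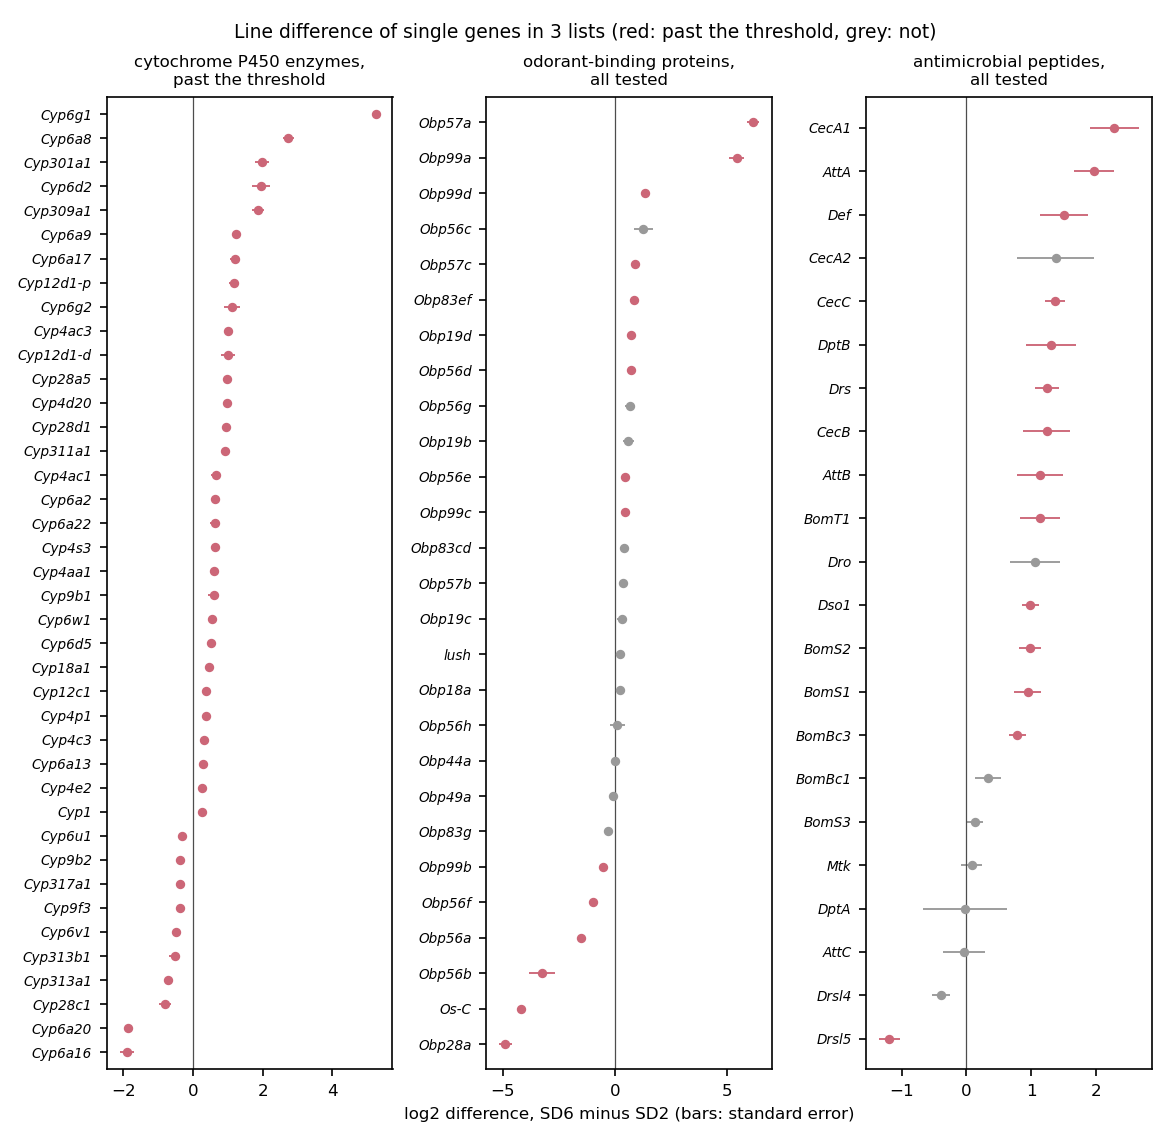
Log2 difference (SD6 minus SD2, bars are standard errors) of the 40 called P450 genes, all 27 tested odorant-binding proteins and all 22 tested antimicrobial peptides, with called genes in red and the rest in grey. Cyp6g1 at 5.24, Obp57a at 6.15 and Obp99a at 5.41 stand far to the right, Obp28a at −4.87 and Os-C at −4.18 far to the left, and the antimicrobial peptides lie mostly above 0.

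Odorant-binding proteins, which carry odorants and tastants in the fluid around sensory neurons, held some of the largest differences in both directions. Of 27 tested 9 were higher and 6 lower (55.6% called, against 23.2% of all tested genes). Obp99a (FBgn0039678, arm 3R) was at 0.851, 2.21, 2.30 and 6.81 CPM in SD2 and at 149, 127 and 121 CPM in SD6 (5.41 ± 0.32, adjusted p = 6.35e-07). Obp57a (FBgn0043535, arm 2R), of taste organs, was at 0.473, 0.119, 0.378 and 0.0549 CPM against 16.5, 15.6 and 18.1 CPM (6.15 ± 0.27). For Obp99a SD6 is the line apart, since SD3 averaged 1.57 CPM, whereas SD3 held Obp57a at 15.3, 17.2 and 13.5 CPM.

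Obp28a (FBgn0011283, arm 2L), a major antennal protein, was lower in SD6, at 5.67, 8.00, 8.24 and 9.83 CPM in SD2 against 0.213, 0.466 and 0.201 CPM (−4.87 ± 0.27). Os-C, of the olfactory organ, was at 23.7, 21.7, 12.2 and 9.88 CPM against 1.35, 0.999 and 0.645 CPM (−4.18 ± 0.15). Obp56a fell from 19.5, 34, 22.5 and 35.9 CPM to 8.54, 10.9 and 11.4 CPM (−1.53 ± 0.11). Abundant members moved less: Obp19d was higher by 0.73 ± 0.083 and Obp57c by 0.90 ± 0.083. The summed CPM of the family overlapped, at 3449 to 4423 in SD2 and 4183 to 4762 in SD6.

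Receptors for odours and tastes were scarce in whole heads, and 22 of 185 could be tested. Of these 5 were higher and 2 lower (31.8% called, against 23.2% of all tested genes). Besides Or67d, Ir76a, an antennal ionotropic receptor, was at 0.189, 0.179, 0.275 and 0.0549 CPM in SD2 and at 3.99, 2.33 and 3.51 CPM in SD6 (4.42 ± 0.33). Or63a was at 3.21, 1.85, 3.26 and 2.36 CPM against 7.69, 5.79 and 5.08 CPM (1.31 ± 0.16). Ir21a, a receptor of cooling cells, was lower (−1.02). The remaining receptors had too few reads to be tested.

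Antimicrobial peptide genes were mostly higher in SD6, 13 of 22 tested with 1 lower (63.6% called, against 23.2% of all tested genes). Their median log2 difference was 1.02. Dso1 was at 242, 318, 256 and 367 CPM in SD2 and at 614, 704 and 519 CPM in SD6 (0.99 ± 0.13), and BomS2, a Bomanin of the Toll response, went from 653 ± 179 to 1352 ± 118 CPM (0.99 ± 0.17). Drs, the antifungal peptide drosomycin, was at 22.3, 27.3, 39.3 and 18.8 CPM against 77.5, 64.8 and 46.9 CPM (1.25 ± 0.19). CecC was at 2.27, 4, 3.23 and 3.79 CPM against 6.40, 8.92 and 11.7 CPM (1.37 ± 0.15). For Dso1, Drs and CecC the lines did not overlap.

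AttA overlapped between the lines, at 2.08, 20.5, 3.16 and 6.86 CPM against 32.5, 92.4 and 16.2 CPM (1.98 ± 0.31), and its reads are uncertain because AttB is a close copy. Drsl5 was the lower member, at 102, 93.2, 169 and 77.5 CPM in SD2 against 47.7, 44.0 and 39.8 CPM in SD6 (−1.19 ± 0.16). With C8 15 were higher and 2 lower, but as labelled only 3 were higher and 1 lower. The peptides are made by fat body. Of its 10 tested marker genes 1 was higher and 3 were lower (40.0% called, against 23.2% of all tested genes). Their summed level was 2578 to 3147 CPM in SD2 and 2538 to 3485 CPM in SD6. The part of fat body amount in the peptide differences was not tested.

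The signalling genes upstream moved in both directions, 7 of 22 higher and 4 lower. Lower were GNBP1, which senses Gram-positive bacteria for Toll (63.6, 57.9, 56.7 and 52.2 CPM in SD2, 31.1, 33.3 and 33.2 CPM in SD6; −0.82 ± 0.083), the protease psh (−0.72 ± 0.10) and key, the IKK gamma of the Imd pathway (−0.65 ± 0.064). The receptor PGRP-SA (0.47 ± 0.10) and imd (0.48 ± 0.10) were higher. The transcription factors Dif (0.28 ± 0.064) and Rel (0.21, adjusted p = 0.0675) differed little.

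Of the stress-induced Turandot genes TotA was higher (12.7, 26.3, 25.5 and 13.3 CPM in SD2, 52.0, 60.7 and 70.0 CPM in SD6; 1.61 ± 0.23), while TotX (−2.38 ± 0.36) and TotC (−2.17 ± 0.55) were lower. Of 8 Turandot genes on the list these 3 could be tested (100.0% called, against 23.2% of all tested genes). Among 10 genes of antiviral defence 3 were called (30.0%, against 23.2% of all tested genes). pst, whose natural variants affect resistance to Drosophila C virus, was at 413, 548, 377 and 454 CPM in SD2 and at 278, 343 and 323 CPM in SD6 (−0.59 ± 0.074). ref(2)P, known for sigma virus restriction, was lower by −0.46 ± 0.10 and Vago higher by 0.71 ± 0.12, the latter with overlapping samples. As labelled none of the 3 was called. AGO2 (−0.11), Dcr-2 (0.028) and r2d2 (0.16) of RNA interference did not pass, nor did CHKov1, CHKov2, vir-1 and Sting, between −0.024 and 0.11.

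Metallothioneins are small proteins that bind copper and other metals. Of 6 on the list 3 could be tested, and all 3 were higher in SD6 (100.0% called, against 23.2% of all tested genes). MtnA (FBgn0002868, arm 3R) was at 122, 106, 225 and 140.1 CPM in SD2 and at 505, 377 and 553 CPM in SD6 (1.90 ± 0.09, adjusted p = 1.37e-07). MtnF was at 3.97, 4.06, 6.56 and 4.61 CPM against 9.61, 8.52 and 11 CPM (1.13 ± 0.14), and MtnD went up by 2.95 ± 0.34 at a low level. MTF-1, the metal-responsive factor that drives them, was at 18.8 and 20.6 CPM (0.11, adjusted p = 0.453). As labelled neither of the 2 tested was called, and C9 held MtnA at 147 CPM. The iron carrier Tsf1 was at 527, 791, 576 and 757 CPM against 1304, 2062 and 970.3 CPM (0.96 ± 0.18). Of 13 heat shock genes 4 were higher and 1 lower (38.5% called, against 23.2% of all tested genes). Hsp23 was among the higher, at 35.3, 44.1, 24.8 and 21.8 CPM against 55.6, 61.0 and 49.0 CPM (0.73 ± 0.11).

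**Figure D5:**
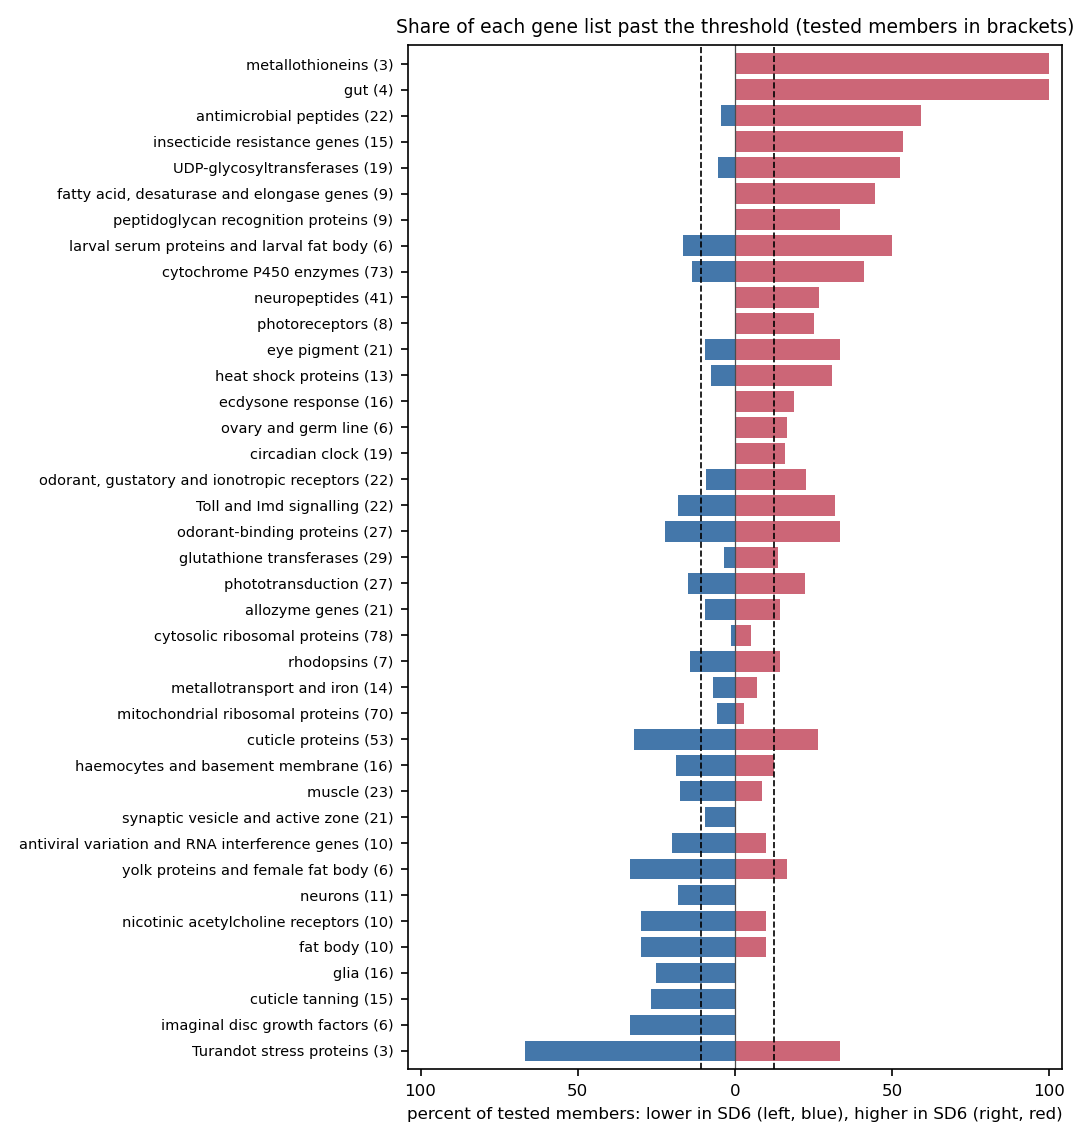
Share of the tested members of each gene list that was higher (red, right) or lower (blue, left) in SD6, with dashed lines at the shares of all tested genes, 12.5% higher and 10.7% lower. Metallothioneins (3), antimicrobial peptides (22) and insecticide resistance genes (15) reach far to the right, while glia (16) and cuticle tanning genes (15) have lower members only, which holds without C9 and not with C8.

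Cuticle protein genes split almost evenly, with 14 of 53 tested higher and 17 lower (58.5% called, against 23.2% of all tested genes). Within the Ccp84A cluster of 3R, Ccp84Aa was higher (2.74, 4.30, 1.99 and 5.16 CPM in SD2, 11.2, 21.1 and 17.2 CPM in SD6; 2.07 ± 0.14) while Ccp84Ag was lower (49.5, 70.8, 43.7 and 54.5 CPM against 14.7, 25.4 and 15 CPM; −1.74 ± 0.11). Cpr47Ee was at 132, 147, 132 and 138 CPM against 64.3, 65.9 and 58.2 CPM (−1.16 ± 0.069). Cpr50Ca was at 7.47, 5.97, 7 and 6.15 CPM against 0.427, 0.799 and 0.242 CPM (−3.83 ± 0.28). Lcp1, a larval cuticle protein, was at 0.189, 0.358, 0.343 and 0.879 CPM against 7.90, 4.13 and 6.16 CPM (3.88 ± 0.35). Neighbours within a cluster could thus differ in opposite directions.

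Tanning and pigment genes included Pu (FBgn0003162, arm 2R), the GTP cyclohydrolase that starts pteridine and tetrahydrobiopterin synthesis, at 1401, 1511, 1194 and 1265 CPM in SD2 and 679, 825 and 671 CPM in SD6 (−0.96 ± 0.084, adjusted p = 1.24e-05). With C9 kept as labelled, where C9 held 1407 CPM, the difference was −0.62 and not called. Of 15 tanning genes 4 were lower and none higher (26.7% called, near the 23.2% of all tested genes), the others being PPO1, a prophenoloxidase (−1.50 ± 0.26), yellow-d (−1.07 ± 0.22) and Ddc, the dopa decarboxylase (−0.29 ± 0.069). ple, the tyrosine hydroxylase, was at −0.17 (adjusted p = 0.443). In the eye pigment list 7 of 21 were higher and 2 lower (42.9% called, against 23.2% of all tested genes). The kynurenine hydroxylase of brown pigment, cn, was at 2.08, 3.22, 1.13 and 2.03 CPM against 0.356, 0.799 and 0.322 CPM (−2.34 ± 0.28).

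In the eye, 6 of 27 phototransduction genes were higher and 4 lower (37.0% called, against 23.2% of all tested genes). Among genes of retinoid supply, ninaD, the scavenger receptor that takes up carotenoids, was at 102, 137, 107 and 101 CPM in SD2 and at 39.2, 55.9 and 60.2 CPM in SD6 (−1.18 ± 0.12). ninaG, of chromophore synthesis, was at 244, 252, 181 and 199 CPM against 139, 169 and 83.7 CPM (−0.90 ± 0.11), and ninaB, which cleaves carotenoids, was lower by −0.38 ± 0.077. santa-maria, another carotenoid receptor (−0.15, adjusted p = 0.188), and pinta, a retinoid-binding protein (0.11, adjusted p = 0.448), did not pass. The channel trpl (0.53 ± 0.12) and the lipid phosphatase laza (0.58 ± 0.063) were higher. Among the 7 rhodopsins 2 were called (28.6%, near the 23.2% of all tested genes). Rh6 was higher by 0.40 ± 0.071 (354, 308, 319 and 270.3 CPM against 485, 386 and 364 CPM) and Rh2 of the ocelli lower (−0.22 ± 0.066). ninaE (0.084), Rh3 (0.085), Rh4 (0.017), Rh5 (−0.075) and Rh7 (0.25) did not pass. The summed level of the photoreceptor markers was 39841 to 45729.9 CPM in SD2 and 44736 to 53157 CPM in SD6, and its part in these values was not tested.

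Neuropeptide genes called were all higher in SD6, 11 of 41 with none lower (26.8%, against 23.2% of all genes in either direction). Eh, the eclosion hormone, was at 9.74, 13.0, 12.8 and 12.2 CPM in SD2 and at 24.6, 22.6 and 26.7 CPM in SD6 (1.04 ± 0.11, adjusted p = 3.95e-05). Crz, corazonin, was at 12.6, 12.0, 14.6 and 14.2 CPM against 24.3, 22.0 and 22.0 CPM (0.80 ± 0.094), and Pdf, the transmitter of clock neurons, was higher by 0.77 ± 0.12. The abundant Nplp3 was higher by 0.71 ± 0.14, and the insulin-like peptide Ilp2 by 0.37 ± 0.077. As labelled 3 were called, all higher, whereas with C8 11 were higher and 1 lower and with library size alone 10 were higher and 1 lower.

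Of 11 neuronal markers 2 were lower (18.2% called), Syn by −0.29 and Rbp9 by −0.31, and of 21 synaptic genes 2 were lower (9.52%). Both shares were below the 23.2% of all tested genes. Of 19 clock genes 3 were higher (15.8%, below the 23.2% of all tested genes), the photoreceptor cry by 0.36 ± 0.067. Of 16 glial genes 4 were lower (25.0% called, near the 23.2% of all tested genes): axo (88.8, 83.2, 101 and 100.2 CPM in SD2, 54.9, 58.4 and 50.9 CPM in SD6; −0.75 ± 0.087), the astrocyte gene alrm (−0.60 ± 0.069), wrapper (−0.52) and Indy (−0.36), whereas the pan-glial repo was at −0.15 (adjusted p = 0.173). With C8, 6 glial genes were lower and 2 higher. The summed level of the glial list overlapped, at 6079 to 6829 CPM in SD2 and 6151 to 6982 CPM in SD6. Among 10 nicotinic receptor subunits 4 were called (40.0%, against 23.2% of all tested genes). Of these nAChRalpha5 was higher (0.70 ± 0.11) and nAChRalpha1 (−0.45), nAChRbeta2 (−0.30) and nAChRalpha3 (−0.31) were lower.

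Storage proteins of the larval fat body diverged. Lsp1beta (FBgn0002563, arm 2L) was at 23.9, 33.9, 13.6 and 15.1 CPM in SD2 and at 180.1, 216 and 98.0 CPM in SD6 (2.71 ± 0.08, adjusted p = 2.5e-09). Lsp2 was lower, at 114, 69.8, 33.1 and 38.1 CPM against 42, 36.1 and 16.8 CPM (−1.12 ± 0.14), with overlapping samples. Lsp1alpha was higher by 1.77 ± 0.25, and Lsp1gamma did not pass (0.16). Subunits of the same storage protein family thus differed in opposite directions between the lines.

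Yolk protein transcripts, made by female fat body, are given for females only because SD6 lacks 1 male sample. Yp1 was at 2279 and 3333 CPM in SD2 females and at 1461 and 1977 CPM in SD6 females, and Yp2 at 2248 and 2676 CPM against 1114 and 1527 CPM. Over all samples the differences were −0.70 ± 0.094 and −1.22 ± 0.20, and Yp3 (0.20), fit (0.72) and to (−0.19) did not pass. sxe2, a sex-biased lipase, was higher in SD6 by 0.95 ± 0.076. Of lipid droplet genes Lsd-1 (−0.96 ± 0.20) and Lsd-2 (−0.44 ± 0.092) were lower, and apolpp, the lipophorin precursor, was higher (0.55 ± 0.12). FASN2, a fatty acid synthase, was at 30.2, 19.8, 19.6 and 26.5 CPM against 43.6, 36.9 and 76.8 CPM (1.18 ± 0.21).

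Among 21 genes of the classical allozymes 3 were higher and 2 lower (23.8% called, near the 23.2% of all tested genes). Gpdh1, glycerol-3-phosphate dehydrogenase, was at 978, 1122, 1014 and 1212 CPM in SD2 and at 694, 801 and 776 CPM in SD6 (−0.54 ± 0.081). Zw, glucose-6-phosphate dehydrogenase, was at 59.4, 48.8, 49.2 and 40.0 CPM against 73.1, 82.7 and 64.4 CPM (0.56 ± 0.092). Adh gave a difference of 3.75 ± 0.19 from 0.646 to 9.31 CPM, but 93.9% of its exon bases are shared with Adhr on the same strand in the BDGP6 annotation. Reads there count for neither gene, so the value is not the level of the Adh messenger. Got2 was lower (−0.54) and Hex-C higher (0.49). The other members lay between −0.15 and 0.25 and did not pass.

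In muscle 2 of 23 genes were higher and 4 lower (26.1% called, near the 23.2% of all tested genes). Act79B, an actin of tubular muscles, was at 177, 168, 146 and 162 CPM in SD2 and at 72.2, 72.0 and 72.2 CPM in SD6 (−1.20 ± 0.073, adjusted p = 7.48e-07). TpnC47D, a troponin C, was at 39.4, 36.8, 37.5 and 22.1 CPM against 106, 116 and 79.8 CPM (1.54 ± 0.13). Mhc, the myosin heavy chain, was at −0.022 (adjusted p = 0.925). Of 12 members of the gut list only 4 could be tested, and all 4 were higher (100.0% called, against 23.2% of all tested genes). LManI (0.80 ± 0.11) and LManII (0.63 ± 0.072) were 2 of them. Mal-A1 (1.21 ± 0.28, from 0.922 to 2.04 CPM) and Mal-A2 (4.47 ± 0.56, from 0.0534 to 1.51 CPM) were at low levels. Mal-A2 passed the filter through SD6. The gut proteases Jon25Bi and betaTry had no read in any library.

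Ribosomal protein genes were among the least divided. Of 78 tested cytosolic ones 4 were higher and 1 lower (6.41%), and of 70 mitochondrial ones 2 were higher and 4 lower (8.57%), both below the 23.2% of all genes. RpS9 was lower by −0.42, and RpL36A higher by 0.34.

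Whether the line difference depends on sex or diet was asked with interaction terms. For sex, edgeR called 0 of 9823 genes (0%), although 454 had an unadjusted p below 0.05. DESeq2 called 2 genes and limma-voom none. The smallest p was that of CG3088, at 22.0, 39.5, 36.0 and 64.5 CPM in SD2 and 148, 83.9 and 84.6 CPM in SD6 (1.85 ± 0.25, male minus female line difference, adjusted p = 0.236). This term shares SD2 males with the second sequencing run.

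For diet, 21 of 9823 genes were called (0.214%), 11 with a line difference more positive on LPS and 10 more negative. Fbp2, a larval fat body protein, was at 14.3 and 25.8 CPM in SD2 on HPS and at 0.481 and 0.549 CPM on LPS, while SD6 had 27.9 and 46.1 CPM on HPS and 13.8 CPM on LPS (3.45 ± 0.29, LPS minus HPS line difference, adjusted p = 0.000159). Fbp1, the receptor of storage proteins, was at 30.7 and 65.6 CPM against 1.44 and 2.25 CPM in SD2, and at 39.4 and 44.7 CPM against 10.9 CPM in SD6 (2.41 ± 0.34). Both genes were lower on LPS in both lines, by less in SD6.

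CG8665 followed the same pattern (1.78 ± 0.22), with 31.7 and 49.2 CPM on HPS and 4.22 and 9.88 CPM on LPS in SD2. In SD6 it was at 47.2 and 72.4 CPM against 43.4 CPM. DptA, the antibacterial peptide diptericin, was at 0.284 and 0.896 CPM on HPS and 8.31 and 14.8 CPM on LPS in SD2, against 1.28 and 6.52 CPM and then 5.64 CPM in SD6 (−4.24 ± 0.53). Lsd-1 was at 226 and 216 CPM on HPS and 273 and 197 CPM on LPS in SD2, and at 96.0 and 70.1 CPM against 178 CPM in SD6 (1.21 ± 0.18). The SD6 LPS value is that of 1 female sample in each case. With C8 as a second SD6 sample on LPS, 5 genes were called, all among the 21: Fbp2, CG8665, CG10621, Fbp1 and mia. All 21 kept the sign of the term.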

How the data were processed

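The authors deposited counts, whole numbers of reads per gene with no normalization. Per the labels' protocols, a stranded poly(A) kit and single-end reads of 75 bp were used. The submitters' processing notes name TopHat2 2.1.0 and HTSeq 0.6.1p1, and the deposited file names mark unique reads on the reverse strand, so near-identical genes lose reads and overlapping genes of opposite strands stay separate. The genome build is not given in the sources used here. Symbols, arms, neighbours and exon overlaps come from the Ensembl annotation of BDGP6 (17155 of 17370 genes matched). The 96 spike-in and 5 summary entries were left out. Reads of no feature made up 10.4% and 14.9% of the 2 libraries of the second sequencing run, both of SD2 males. In the other libraries they made up 2.93% to 4.96%. Spike-in reads made up 0.558% and 0.44% of the libraries of the second run and at most 0.133% of the others.

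The test was the quasi-likelihood F-test of edgeR 4.0.16 (R 4.3.3) with TMM and filterByExpr by line at a minimum count of 10. It had terms for sex, diet and line, and 3 residual degrees of freedom. The fit was also run on simulated counts that had no sex or diet effect and no spread particular to a gene. That run does not show the error rate of the test in these data. The standard error of a log2 difference is its absolute value divided by the square root of the F statistic. Where a line has few reads it can be smaller than the counting error. CPM use TMM factors over all 12 samples. DESeq2 1.42.0 and limma 3.58.1 were alternatives. Floors of 3 reads cover counting error only. The samples, the 41 gene lists and the tests were chosen with earlier results of these data known. Named genes are the 12 largest with a name and 4 known by number per direction (at least 5 CPM, ranges apart, called without C9 and with C8), up to 5 called members of each list, all members of 5 lists and up to 6 genes under the floor. Other members in the text were picked after their values were seen.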

Additional observations from a re-analysis of the deposited data

Results flagged for a closer look

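In the 4 SD2 samples, 6 of 155 called and named genes (3.87%) had 1 sample far from the other 3 by Dixon's criterion, which flags about 1 in 20 groups without any cause. The female LPS sample was the one apart for kar at 111 CPM (others 118 to 119), for TpnC47D at 22.1 CPM (others 36.8 to 39.4) and for apolpp at 597 CPM (others 266 to 303). The female HPS sample was apart for Hsp27 at 5.37 CPM (others 3.4 to 3.5) and nAChRbeta2 at 68.0 CPM (others 74.5 to 75.7), and the male HPS sample for wrapper at 57.2 CPM (others 61.9 to 62.8). The 3 samples of SD6 are too few for this criterion.

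The line difference depended on diet for 21 genes by an interaction term in edgeR, where values are the line difference on LPS minus that on HPS (log2) and the SD6 LPS side is 1 sample. It was more positive on LPS for Fbp2 (3.45), CG13075 (3.11), Fbp1 (2.41), CG8665 (1.78), Nepl14 (1.32), CG31778 (1.23), CG10621 (1.22), Lsd-1 (1.21), CG33494 (1.09), CG16926 (1.02) and Jhbp5 (0.95). It was more negative for CG9676 (−4.39), DptA (−4.24), CG33307 (−2.77), AttB (−2.30), CG4757 (−2.10), mia (−1.70), CG11893 (−1.40), Cyp4e3 (−1.17), Tsf1 (−1.06) and CG7300 (−1.05).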

How the results depend on the processing

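The count of 2277 called genes stayed within 1.5 times under the other scalings, filters, DESeq2 (1875) and limma-voom (2287), 1 sequencing run (1787), females only (1648), each library of the SD2 male LPS RNA alone and all 3 lines in 1 fit. As labelled it was 1012 (614 higher, 398 lower), since C9 goes against its label. Against a 1.5-fold threshold 452 were called (271 and 181), and with line alone 679 were lower. Leaving out 1 sample gave 1352 to 2225 calls, 790 to 1202 of them higher and 562 to 1023 lower, with the lowest count without the SD2 female HPS sample and 1512 calls (667 lower) without the SD6 male HPS sample. Numbers shared by samples stand for sex and diet and not for a common source, and with them as a replicate block 2095 were called (3103 with C8).

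The interaction of line and sex gave 78 calls without a filter and 2 with DESeq2. That of line and diet gave 5 with C8, 0 as labelled, 10 and 12 with 1 library of the SD2 male LPS RNA, 10 with upper quartile scaling, 34 with library size only, 124 without a filter and 12 at a minimum count of 50. Of 200 called named genes 67 were called in each of 27 alternatives. PPO1 turned from −1.50 to 0.64 as labelled, and DptA, which was not called at −0.025, ranged from −0.89 to 2.63 when 1 sample was left out, the latter without the SD6 female LPS sample. The cause was not tested. Scaling by library size alone changed the direction of no called named gene. Depth limits genes near 3 reads.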

Other observations

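CG7300 lies in a run of 4 adjacent genes that were higher in SD6. It was at 5.58, 9.37, 6.56 and 10.9 CPM in SD2 and at 105, 152 and 87.4 CPM in SD6 (3.64 ± 0.17), and its antisense partner asRNA:CR44181, which overlaps 98.1% of its exon bases, was higher as well (2.02). SD3 was higher still for CG7300, at 309, 219.7 and 209 CPM.

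Basement membrane genes split, with the laminin subunits LanA (0.52 ± 0.076) and LanB1 (0.49 ± 0.063) higher and the collagen IV genes vkg (−0.35) and Col4a1 (−0.35) lower in SD6. The haemocyte markers Hml (−0.22, adjusted p = 0.133) and NimC1 (0.035) did not pass. Hr38, a nuclear receptor induced by neuronal activity, was at 16.9, 18.9, 15.1 and 17.5 CPM in SD2 and at 48.1, 28.1 and 27.9 CPM in SD6 (0.98 ± 0.15). The chitinase-like growth factors Idgf2 (−0.71) and Idgf3 (−0.43) were lower, and 4 others of 6 tested did not pass (33.3% called, against 23.2% of all tested genes).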
